A study of Mus musculus with 12 samples.

Results

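Estradiol (E2) changed a set of transcripts in the same direction in both cell layers of a mouse uterine co-culture, and this account describes that shared response. All 12 arrays of the series entered the comparison, 6 from co-cultures given E2 and 6 from co-cultures given vehicle, with the layer as a covariate. Of 23410 probe sets with a gene symbol, 991 passed the threshold, 497 higher with E2 (2.12%) and 494 lower (2.11%). Tested in each layer by itself, 145 of these passed in both layers, so a call over both layers need not hold in each. A probe set is the group of probes for 1 transcript, and passing means an adjusted p under 0.05 (limma, with Benjamini-Hochberg adjustment over the 23410 probe sets).

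The cells came from uteri of CD-1 mice, taken at day 4 of a pseudopregnancy. Sheets of epithelium were kept on matrigel-coated inserts above stromal cells on cover slips, in phenol-red free medium with 1% charcoal-stripped serum. After a night in that medium the co-cultures received E2 at 10 nM or the ethanol solvent alone at 0.01% for 2 days, and RNA was then taken from each layer separately. Each layer thus had 3 vehicle and 3 E2 arrays, making 4 groups. The labels name no mutation or transgene, and both treatments shared the medium, the strain and the co-culture itself, so no layer was measured alone. Whether replicate arrays stand for different animals or cultures is not stated in the labels, nor whether both layers of a number are 1 co-culture, and p-values therefore measure the spread between these arrays, which may be technical. In such bulk samples fewer cells of a type and less RNA per cell cannot be told apart.

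Estradiol acts mainly through the estrogen receptor alpha, a nuclear receptor encoded by Esr1 that binds DNA at estrogen response elements or works through other bound factors such as AP-1. In the uterus the receptor is present in both epithelium and stroma. Many epithelial responses to the hormone are relayed from the stroma by secreted growth factors, while the progesterone receptor gene Pgr and the cofactor gene Greb1 are classic direct targets. Estrogen receptor signalling is also known to restrain inflammatory gene expression driven by NF-kappaB.

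The layers were checked against marker genes. The mean log2 signal of 19 epithelial markers was 10.40, 10.98 and 9.39 in the 3 epithelial vehicle arrays and 9.24, 9.48 and 9.60 in the 3 epithelial E2 arrays, against 6.63 to 7.03 in the 6 stromal arrays. The mean of 20 stromal markers was 10.55 to 10.72 under vehicle and 10.48 to 10.62 under E2 in the stromal arrays. In the epithelial layer the vehicle arrays had 9.77, 9.51 and 10.36 and the E2 arrays 10.45, 10.42 and 10.28. The stromal layer thus had epithelial markers far below the epithelial layer, whereas stromal markers in the epithelial arrays came close to their level in stroma, and nearer with E2. The part of stromal RNA in the epithelial differences below was not tested.

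**Figure D1:**
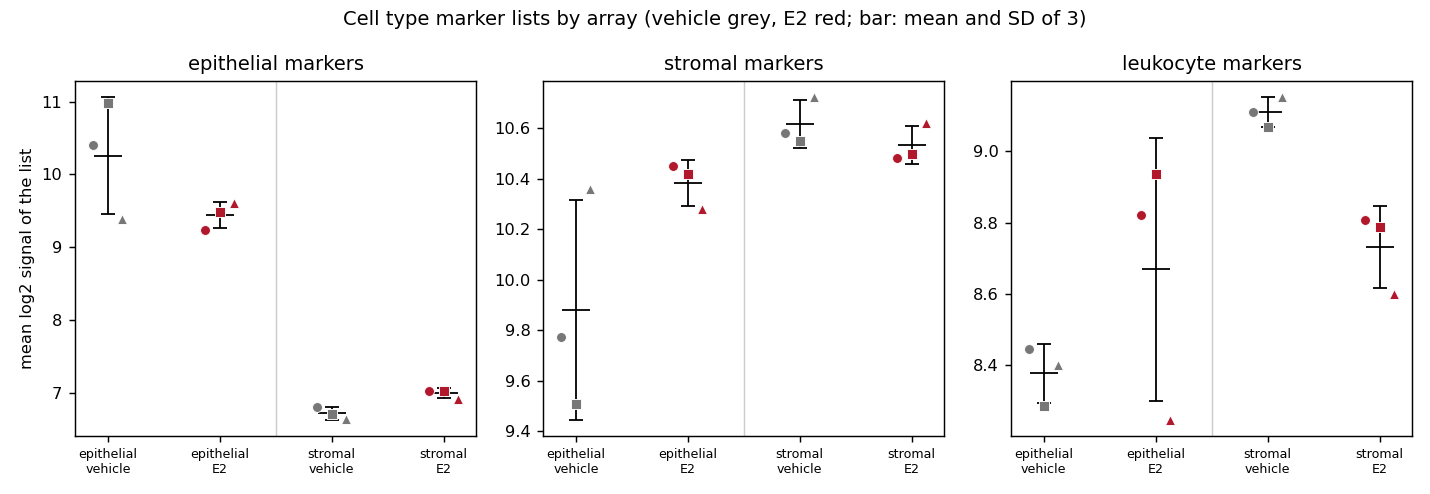
Mean log2 signal of the epithelial, stromal and leukocyte marker lists (vertical axes) in each array by group (horizontal axis), with vehicle in grey, E2 in red, and bars for the mean and SD of 3 arrays. Epithelial markers separated the layers, with 9.24 to 10.98 in epithelial and 6.63 to 7.03 in stromal arrays, while stromal markers reached 9.51 to 10.45 in the epithelial arrays.

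Leukocyte markers, 16 genes, had means of 8.29 to 8.45 in epithelial vehicle arrays and 8.82, 8.94 and 8.25 in epithelial E2 arrays, and of 9.07 to 9.15 and 8.60 to 8.81 in the stromal vehicle and E2 arrays. They were higher with E2 in 2 of 3 epithelial arrays and lower in all 3 stromal ones. In the comparison over both layers 0 of 19 epithelial, 0 of 11 smooth muscle and 0 of 7 mesothelial markers passed by limma. Of 16 leukocyte markers 1 passed, the macrophage receptor gene Csf1r, which rose (0.75 ± 0.12, adjusted p = 0.00506 by limma). The list median was 0.46 in epithelium and -0.40 in stroma. Of 20 stromal markers 1 passed, the cadherin Cdh11, which fell (-0.55 ± 0.14, adjusted p = 0.0482 by limma). Its call was kept in 2 of 12 fits that left out 1 array, and 11 of the 20 measured higher with E2, with a median of 0.11. Among 12 endothelial markers 2, Cdh5 (-1.16 ± 0.20) and Flt1 (-0.82 ± 0.14), fell. Of those 12, 8 measured higher with E2, with a median of 0.04. Over all 19938 genes, at 1 probe set each, 11484 measured higher. A value after ± is the standard error of the log2 difference before it.

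The response is introduced by 4 genes. Ptgdr2, which encodes a receptor for prostaglandin D2, read 6.54, 6.70 and 6.93 in epithelial vehicle arrays and 9.24, 9.15 and 9.09 with E2, and 7.66, 8.17 and 7.85 against 11.10, 11.25 and 10.96 in stroma. It had the smallest p of all 23410 probe sets. The difference over both layers was 2.82 ± 0.15 (7.07-fold, 95% interval 2.50 to 3.14, adjusted p = 4.48e-06 by limma), with every E2 array far above every vehicle array of its layer.

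Akr1c14, a hydroxysteroid dehydrogenase that reduces steroids, read 5.04, 6.10 and 5.43 under vehicle and 10.75, 10.53 and 10.89 with E2 in epithelium, and 9.44, 10.33 and 9.18 against 12.01, 12.05 and 12.28 in stroma. Both layers rose with no overlap, and the epithelial E2 arrays came to lie above all stromal vehicle arrays. The difference over both layers was 3.83 ± 0.44 (14.2-fold, adjusted p = 0.000852 by limma). It was larger in epithelium (5.20) than in stroma (2.47), with an interaction of -2.73 ± 0.42 (stromal minus epithelial difference, adjusted p = 0.013 by limma). Whether its epithelial vehicle signal lay above background was not tested. Of all tested probe sets, 23.7% had a mean under 6 over the 12 arrays, and folds against such low signals are no measure of transcript ratios.

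Glul, glutamine synthetase, went from 8.56, 8.63 and 8.76 to 10.54, 10.37 and 10.45 in epithelium and from 9.45, 9.87 and 9.65 to 10.87, 10.87 and 11.06 in stroma. The arrays of the treatments did not overlap in either layer, and the SD within a group was at most 0.21 (n = 3). Over both layers it rose by 1.54 ± 0.11 (2.91-fold, adjusted p = 4.18e-05 by limma), and another Glul probe set rose by 1.63.

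Mmp9, a secreted gelatinase that degrades basement membrane collagen, read 12.11, 11.20 and 11.76 under vehicle and 9.94, 10.07 and 10.07 with E2 in epithelium, and 12.35, 12.03 and 12.10 against 9.74, 9.93 and 9.88 in stroma. It fell by 1.99 ± 0.16 on the log2 scale, or 3.96-fold (adjusted p = 9.73e-05 by limma), to about the same level in both layers.

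**Figure D2:**
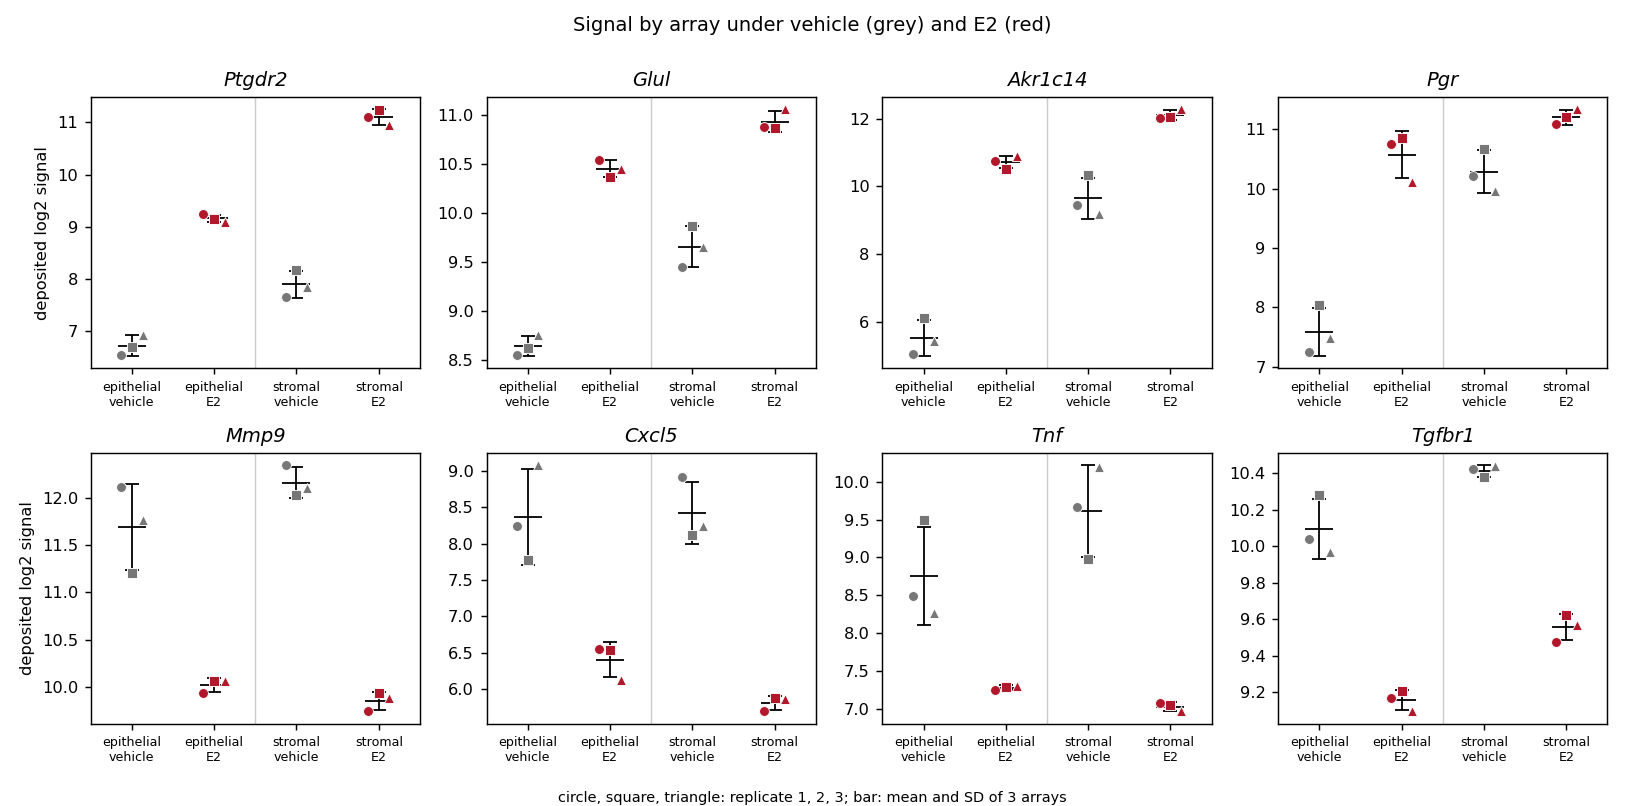
Deposited log2 signal (vertical axes) of 8 genes in each of the 12 arrays by group (horizontal axis), with replicates 1, 2 and 3 as circle, square and triangle and bars for the mean and SD of 3 arrays. E2 arrays (red) lie above the vehicle arrays (grey) in both layers for Ptgdr2, Glul, Akr1c14 and Pgr and below them for Mmp9, Cxcl5, Tnf and Tgfbr1.

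Short stretches upstream of the transcription start are printed for 6 of the genes as examples, 3 of the 4 above together with Map3k6, Nfkbie and Csf1. The last 3 each hold searched letters, so the 6 do not stand for the shared genes, whose shares are given further below. The stretches are the 250 bases before the start from RefSeq windows on GRCm38.p6, read 5′ to 3′ in the direction of the gene. Capitals mark motif letters found by the search described after them.
Ptgdr2 (chr19:10936910-10937159, plus strand): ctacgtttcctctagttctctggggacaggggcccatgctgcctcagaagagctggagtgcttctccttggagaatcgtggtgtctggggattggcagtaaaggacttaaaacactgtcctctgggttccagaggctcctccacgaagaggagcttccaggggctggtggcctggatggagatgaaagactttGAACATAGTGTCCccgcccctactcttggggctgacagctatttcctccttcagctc
Akr1c14 (chr13:4059341-4059590, plus strand): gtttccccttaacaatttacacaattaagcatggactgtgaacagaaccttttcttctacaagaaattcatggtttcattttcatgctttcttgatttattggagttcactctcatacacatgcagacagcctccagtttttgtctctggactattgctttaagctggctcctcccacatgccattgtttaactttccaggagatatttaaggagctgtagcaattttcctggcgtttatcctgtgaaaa
Glul (chr1:153899679-153899928, plus strand): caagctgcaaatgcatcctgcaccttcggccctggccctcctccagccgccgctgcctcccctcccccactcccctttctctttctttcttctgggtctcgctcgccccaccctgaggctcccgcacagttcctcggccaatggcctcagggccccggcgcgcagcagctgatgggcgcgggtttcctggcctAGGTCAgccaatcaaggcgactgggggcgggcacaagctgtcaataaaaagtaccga
Map3k6 (chr4:133240568-133240817, plus strand): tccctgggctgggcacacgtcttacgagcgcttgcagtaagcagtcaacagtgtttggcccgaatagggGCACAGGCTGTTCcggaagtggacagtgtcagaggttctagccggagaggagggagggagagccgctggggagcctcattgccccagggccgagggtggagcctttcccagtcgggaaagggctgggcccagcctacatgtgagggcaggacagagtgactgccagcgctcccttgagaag
Nfkbie (chr17:45555450-45555699, plus strand): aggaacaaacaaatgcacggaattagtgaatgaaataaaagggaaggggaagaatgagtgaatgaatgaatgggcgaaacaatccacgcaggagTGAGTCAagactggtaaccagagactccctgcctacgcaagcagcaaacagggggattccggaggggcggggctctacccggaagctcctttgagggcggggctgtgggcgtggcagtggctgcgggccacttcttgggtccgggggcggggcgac
Csf1 (chr3:107760470-107760719, minus strand): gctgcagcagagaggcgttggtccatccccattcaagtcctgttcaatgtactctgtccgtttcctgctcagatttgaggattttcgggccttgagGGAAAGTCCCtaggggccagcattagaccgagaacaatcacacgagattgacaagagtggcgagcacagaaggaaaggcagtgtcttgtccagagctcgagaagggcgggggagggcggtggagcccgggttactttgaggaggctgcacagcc

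The windows searched ran from 250 bases before to 50 after a start, on both strands, and 115 of the 147 genes named in this comparison had at least 1. Ptgdr2 held letters of the palindromic progesterone or glucocorticoid response element (GNACANNNTGTNC) from position -57 relative to the start, and the kinase gene Map3k6 held them from position -181. The NF-kappaB inhibitor gene Nfkbie held AP-1 letters (TGANTCA) from position -156, and Csf1, the macrophage growth factor, kappaB letters (GGGANNTTCC) from position -154. Other forms of the kappaB site were not searched, so a stretch without such capitals, as in Nfkbie, may still hold one. Glul held a single arm of the estrogen response element (AGGTCA) from position -57. Map3k6 held another such arm from position 44, past the stretch printed. None of the searched letters stood in the window of Akr1c14.

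Over the genes past the threshold with no overlap in either layer, 273 of 329 that rose had 372 windows and 240 of 321 that fell had 312. The palindromic estrogen response element (GGTCANNNTGACC) stood in 0 of the 372 and 0 of the 312 windows, in 0.0313% of the 19177 windows of all genes tested and in 0.07% of the table's 32851. A single arm of it (AGGTCA, part of the full element in some windows) stood in 14.5% of the windows of risers and 9.62% of those of fallers, against 14.2% of those of all genes tested and 16.3% of the whole table. AP-1 letters stood in 5.38% and 5.45%, against 6.9% and 7.81%. The shares for kappaB letters were 1.61% and 2.56% against 1.41% and 1.47%, and for letters of the progesterone or glucocorticoid element 0.806% and 0% against 0.412% and 0.475%. These shares describe letters in a short window and not binding.

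Several of the 25 risers of smallest p encode signalling proteins. Tagap, a GTPase-activating protein, read 8.21, 9.24 and 9.31 under vehicle and 11.26, 11.25 and 11.29 with E2 in epithelium, and 6.81, 6.94 and 7.08 against 9.40, 9.45 and 10.32 in stroma. It was higher in epithelium than in stroma under either treatment, and rose in both by 2.56 ± 0.21 (5.91-fold, adjusted p = 0.000101 by limma). S1pr1, a receptor for sphingosine 1-phosphate, rose 3.03-fold, from 7.33 to 7.55 up to 8.37 to 9.14 in epithelium and from 8.55 to 9.41 up to 10.67 to 10.87 in stroma. Rras2, a small GTPase of the Ras family, rose 1.93-fold, the phospholipase C gene Plce1 1.93-fold, the cation channel gene Trpc4 2.26-fold and the kinase gene Map3k6 1.55-fold.

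Fgf2, a fibroblast growth factor, read 9.95 to 10.12 under vehicle and 11.06 to 11.33 with E2 in epithelium, and 9.54 to 9.99 against 10.53 to 10.61 in stroma, a rise of 1.00 ± 0.09 (adjusted p = 0.000286 by limma). The matrix protein gene Papln rose 2.96-fold and the serine protease gene Htra3 2.56-fold. Tiparp, an ADP-ribosyltransferase known as a target of the aryl hydrocarbon receptor, rose 2.81-fold, and Slc2a12, a glucose transporter, 2.32-fold. Crabp2 (a retinoic acid binding protein, 2.56-fold), Phyhip (2.94-fold), Tuba8 (an alpha tubulin, 2.85-fold), Rtl3 (2.42-fold), Dnase1l3 (a nuclease, 2.11-fold) and the homeobox gene Irx1 (2.08-fold) rose as well. The remaining 5 of the 25 rose less than 2-fold, namely Zxdc, Hspa4, Sytl1, Rbpms and Bcl9, a coactivator of beta-catenin. All 25 had an adjusted p between 4.48e-06 and 0.000887 by limma and no overlap of treatments in either layer, which their selection required.

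The 25 fallers of smallest p began with a receptor. Tgfbr1, the type I receptor for TGF-beta, read 10.04, 10.28 and 9.97 under vehicle and 9.17, 9.21 and 9.10 with E2 in epithelium, and 10.42, 10.38 and 10.44 against 9.48, 9.62 and 9.57 in stroma. It fell by 0.90 ± 0.06 on the log2 scale, or 1.86-fold (adjusted p = 4.18e-05 by limma), almost equally in both layers (interaction 0.08 ± 0.13). Fam20c, a kinase of the secretory pathway, fell 2.02-fold, and the membrane-bound metalloproteinase gene Mmp14 1.65-fold.

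Cxcl5, a neutrophil chemokine, read 8.25, 7.77 and 9.08 under vehicle and 6.55, 6.53 and 6.12 with E2 in epithelium, and 8.91, 8.12 and 8.24 against 5.69, 5.87 and 5.86 in stroma. Every E2 array was below every vehicle array, and the fall was 2.29 ± 0.22 on the log2 scale, or 4.89-fold (adjusted p = 0.000286 by limma). Cx3cl1, another chemokine, fell 2.80-fold, the guidance cue Ntn1 2.72-fold, the AMPK-related kinase gene Nuak2 2.42-fold, the death receptor gene Tnfrsf21 2.26-fold and the NADPH oxidase gene Nox4 2.05-fold. Smaller falls were measured for the nonmuscle myosin gene Myh9 (1.57-fold), the actin-associated Afap1 (1.56-fold), the cadherin Cdh3 (1.94-fold), the serotonin receptor Htr2a (1.99-fold), the orphan receptor Gprc5b (1.93-fold) and the neurotrophic cytokine receptor Cntfr (1.68-fold). The FGF antagonist Il17rd (1.47-fold), the TGF-beta antagonist Ldlrad4 (1.68-fold), Ldlrad3 (1.59-fold), Tmem35a (1.85-fold), the sulfotransferase Ust (1.83-fold) and Ptk7 (1.36-fold), a gene of planar cell polarity, fell too. A dimmer Myh9 probe set did not pass (-0.51, adjusted p = 0.192 by limma), with a stromal difference of -0.00.

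**Figure D3:**
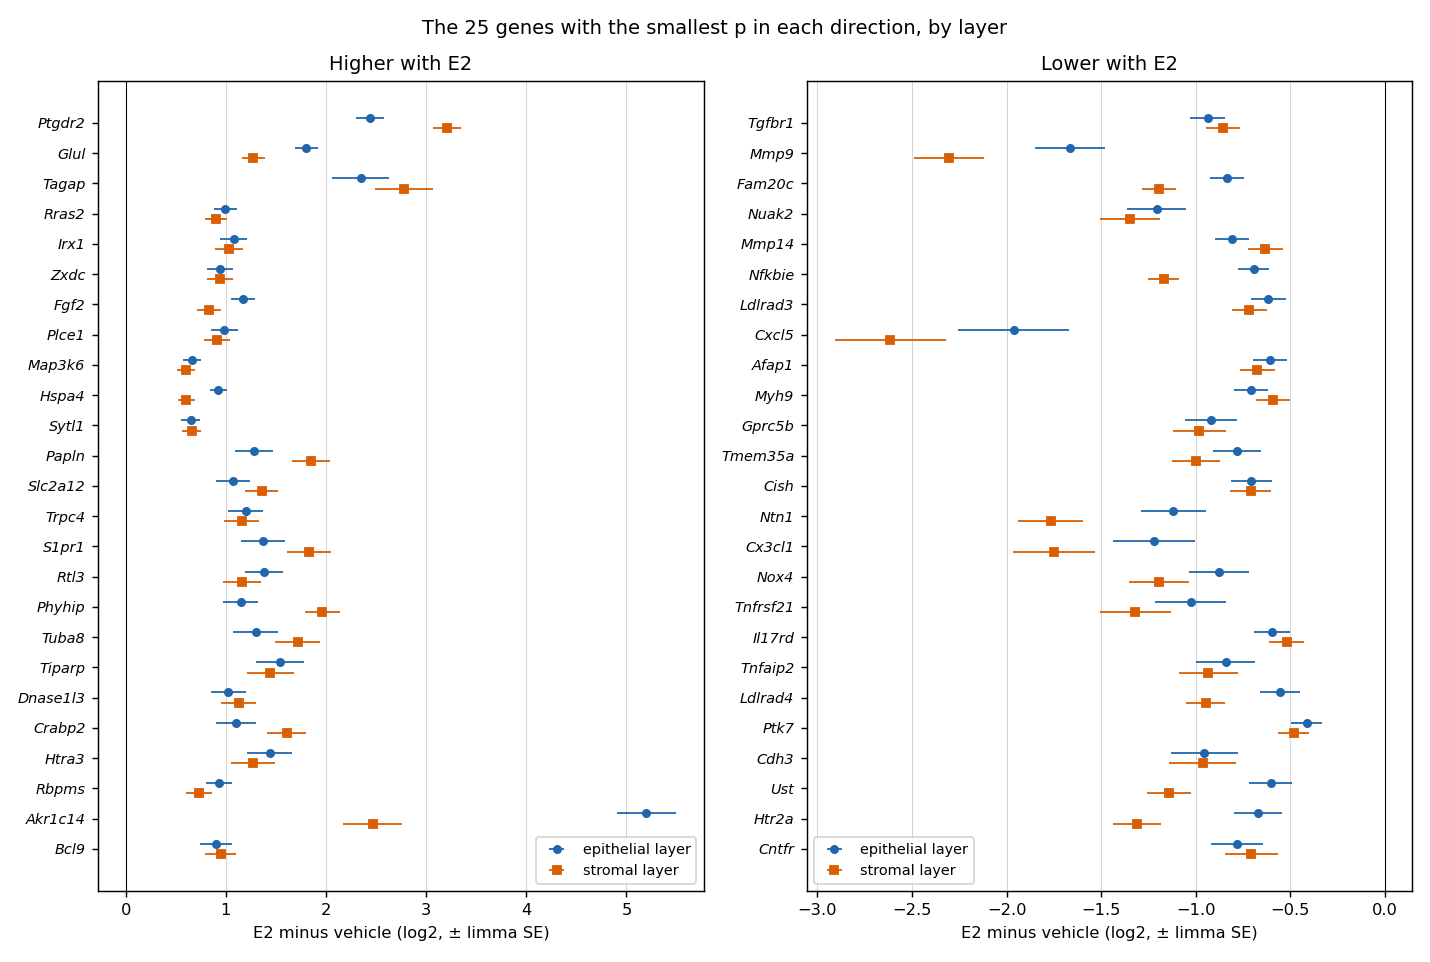
E2 minus vehicle differences (horizontal axes, log2, with limma standard errors) of the 25 genes with the smallest p among risers (left) and fallers (right), with the epithelial layer as blue circles and the stromal layer as orange squares. Differences in the layers lie close together for Rras2, Irx1 and Zxdc on the left and for Tgfbr1, Cish and Cdh3 on the right, and far apart for Akr1c14, at 5.20 in epithelium and 2.47 in stroma.

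The shared response was mostly of moderate size. At the threshold itself, Haus4 (0.25), Fgf12 (0.37) and Snord95 (-0.39) were the last probe sets inside, and B3gnt8 (0.52), Dmd (0.56) and Parp1 (0.37) the first outside. Among the 497 risers 107 changed at least 2-fold and 13 at least 4-fold, and among the 494 fallers 58 and 3. The median absolute difference of the 991 was 0.50 in epithelium and 0.56 in stroma. In 732 of them, 368 up and 364 down, no E2 array overlapped a vehicle array in either layer. Selection by the E2 difference on these same arrays favours such separation. Of all probe sets 5.13%, 1201, were separated in that way. A further 277 probe sets were separated in opposite directions in the layers. All 991 had the same sign in each layer, which a test of the summed difference nearly forces, against 63.6% of all probe sets. The layer differences correlated across the 23410 probe sets with r = 0.32 (Spearman coefficient 0.31), a description over genes, which are not independent replicates.

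Tested in each layer by itself, 2.9% of probe sets passed in epithelium, 3.5% in stroma and 0.619% in both with the same direction. These 145, 76 up and 69 down, all lay among the 991, while 12 probe sets passed in both layers in opposite directions. Of the remaining members 196 passed in epithelium alone, 308 in stroma alone and 342 in neither. A test of the difference between layers passed in 0.91% of probe sets and in 44 members, of which 12 changed more in epithelium and 32 more in stroma. The fits of single layers use the same arrays as the comparison over both, so they are no independent evidence.

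**Figure D4:**
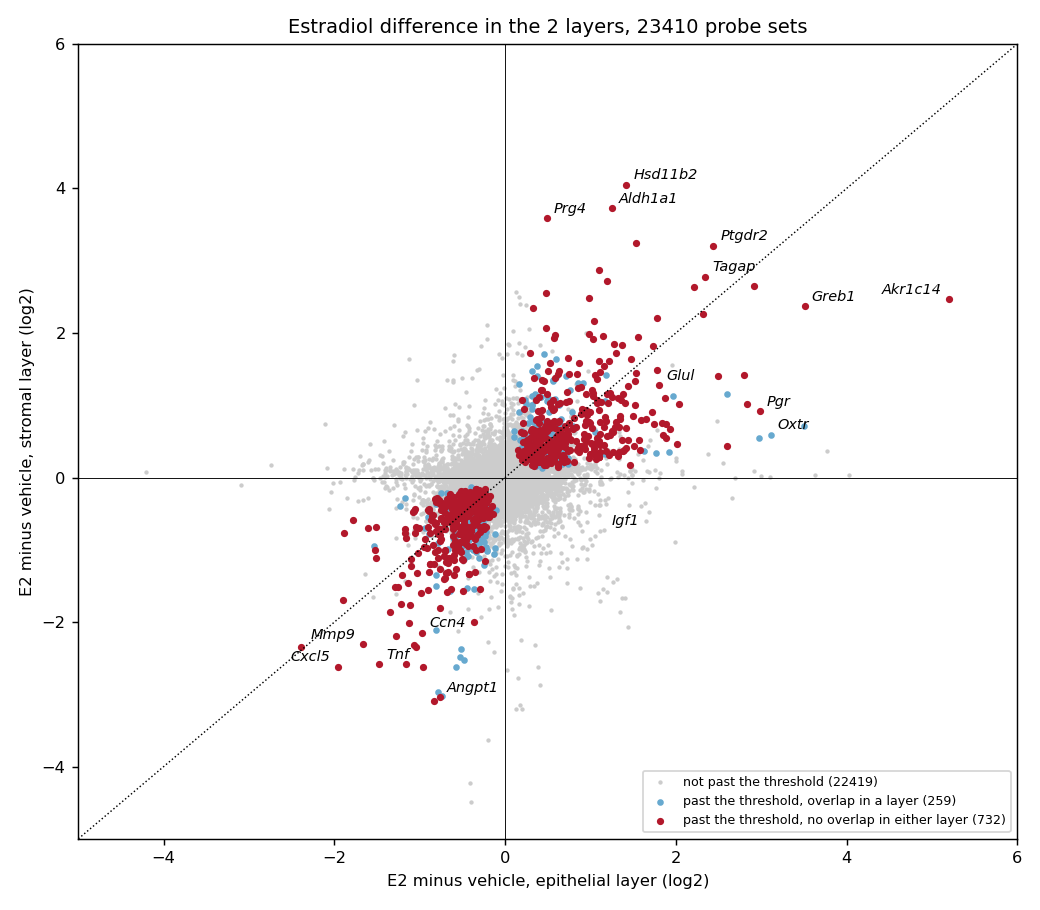
E2 minus vehicle difference in the epithelial layer (horizontal axis, log2) against that in the stromal layer (vertical axis, log2) for 23410 probe sets, with the 732 past the threshold without overlap in red, 259 with overlap in a layer in blue and the rest in grey. Coloured points lie at the upper right and lower left, where both layers moved the same way, with Akr1c14 (5.20 and 2.47) below the dotted line of equal change and Prg4 (0.49 and 3.59) far above it.

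The genes that rose were mostly brighter in stroma under vehicle. Under vehicle 362 of the 497 risers (72.8%) had a higher mean in the stromal than in the epithelial arrays, against 55.5% of the fallers and 46.3% of all probe sets. The other risers were brighter in the epithelial vehicle arrays, among them Tagap and Sytl1 (8.71 to 8.97 in epithelium and 7.70 to 7.91 in stroma under vehicle). Irx1 was so by a smaller margin (7.33 to 7.55 and 7.13 to 7.22). Stromal markers rose toward their stromal level in the E2 epithelial arrays, as given above. The part of stromal RNA in the epithelial rise of the risers was not tested.

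Gene lists put these genes into groups. Counted once per gene, by its brightest probe set, 437 of 19938 genes rose (2.19%) and 423 fell (2.12%), with a median difference of 0.02 over all of them. The lists were written with earlier results of these data known, so a count shows what their members did and no more. Up to 6 members of a list were named by smallest p, and the further members named from the inflammatory, protease, prostaglandin, steroid enzyme, retinoid, guidance and receptor lists were chosen after their values were seen.

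Among 32 genes known to respond to estrogen in the uterus 7 rose, 0 fell by limma and 25 did not pass, with a median of 0.27. In epithelium by itself 12 rose and 1 fell (median 0.49), and in stroma 4 rose and 3 fell (median 0.16). The list mean was 9.07, 9.39 and 8.94 in epithelial vehicle arrays and 9.74, 9.85 and 9.67 with E2. In stroma it was 8.61, 8.83 and 8.64 against 8.79, 8.79 and 8.88, which overlapped. Greb1 read 6.47, 8.63 and 6.51 under vehicle and 10.85, 10.82 and 10.46 with E2 in epithelium, and 7.53, 9.38 and 7.52 against 10.48, 10.49 and 10.57 in stroma. Vehicle replicate 2 stood well above the other vehicle arrays in each layer, and yet below every E2 array. The difference was 2.94 ± 0.42 (7.67-fold, adjusted p = 0.00288 by limma).

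Pgr, the progesterone receptor, read 7.25, 8.03 and 7.49 under vehicle and 10.75, 10.85 and 10.12 with E2 in epithelium, and 10.21, 10.67 and 9.96 against 11.08, 11.20 and 11.33 in stroma. It rose by 1.95 ± 0.34 (adjusted p = 0.00777 by limma). The change was larger in epithelium (interaction -2.06 ± 0.34, adjusted p = 0.0186 by limma), where its vehicle signal was lower. Oxtr, the oxytocin receptor, rose by 1.85 ± 0.40 (adjusted p = 0.0239 by limma) from 7.63 to 8.04 up to 10.74 to 11.07 in epithelium, whereas its stromal arrays overlapped, at 10.88 to 12.14 and 11.96 to 12.20. The layers differed for this gene as well (interaction -2.52 ± 0.35, adjusted p = 0.00932 by limma), and its call was kept in 8 of 12 fits that left out 1 array.

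The Ras-related Rasd1 rose by 1.22 ± 0.18, the spindle checkpoint gene Mad2l1 by 0.87 ± 0.10, the transcription factor Fos by 0.89 ± 0.16 and the coactivator Cited2 by 0.50. Several genes of that list did not move in common. The receptor Esr1 itself differed by -0.10 ± 0.14 (95% interval -0.41 to 0.21, adjusted p = 0.754 by limma). Igf1, a growth factor gene, measured 8.78 to 9.60 under vehicle and 10.29 to 10.45 with E2 in epithelium and 10.05 to 10.49 and 9.40 to 9.86 in stroma, opposite directions that left 0.22 ± 0.30 over both (adjusted p = 0.754 by limma) and an interaction of -1.89 ± 0.28 (adjusted p = 0.0111 by limma). Ltf, which encodes the secreted iron-binding protein lactoferrin, was not distinguishable from no change (-0.32 ± 0.32, 95% interval -1.02 to 0.38, adjusted p = 0.66 by limma), with 10.05 to 12.29 in epithelium and 5.80 to 6.22 in stroma. Among 18 receptors and cofactors of steroid hormones only Pgr and Greb1 rose and the immunophilin gene Fkbp5 fell (-0.61 ± 0.12) by limma.

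The mean of the inflammatory and NF-kappaB genes was lower with E2 in both layers. Of 42 measured, 13 fell, 0 rose by limma and 29 did not pass, and the median was -0.45. Over both layers 40 of 42 had a lower mean, as did 8454 of all 19938 genes. In epithelium by itself 6 fell (median -0.27), and in stroma 19 fell (median -0.62). The mean of the list was 9.01, 8.98 and 9.12 in epithelial vehicle arrays and 8.75, 8.72 and 8.54 with E2, and 9.22, 8.80 and 9.24 against 8.18, 8.22 and 8.06 in stroma. The treatments did not overlap in either layer. Leukocyte markers, at the values given above, were higher in 2 of 3 epithelial E2 arrays and lower in the stromal ones, and their part in this was not tested.

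The cytokine gene Tnf read 8.50, 9.49 and 8.27 under vehicle and 7.24, 7.29 and 7.30 with E2 in epithelium, and 9.66, 8.98 and 10.19 against 7.07, 7.05 and 6.97 in stroma. It spread widely under vehicle and hardly at all with E2, and fell by 2.03 ± 0.27 on the log2 scale, or 4.08-fold (adjusted p = 0.00173 by limma). The other cytokines that fell were Cxcl5, Csf1 (-0.77 ± 0.11), the interleukin Il1a (-1.97, adjusted p = 0.0132 by limma) and the chemokine Cxcl1 (-1.60, adjusted p = 0.0388 by limma). Components of the pathway itself fell as well, among them the NF-kappaB subunit genes Relb (-0.38 ± 0.06) and Nfkb2 (-0.52), the inhibitor Nfkbie (-0.93 ± 0.09), the receptor Tlr2 (-0.66) and the feedback inhibitor Tnfaip3 (-0.46). Tnfaip2, Birc3 and the hyaluronan receptor gene Cd44 completed the 13. Cxcl2 (-1.91, adjusted p = 0.0728 by limma), Il6 (-1.34) and Ccl2 (-1.13) did not pass over both layers. The stromal difference of Cxcl2 was larger (-3.63) than the epithelial one (-0.20), with an adjusted p of 0.00857 for the interaction by limma. Il1b measured 0.28 higher in epithelium and 1.78 lower in stroma. The subunit gene Rela differed by -0.01.

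Some protease genes fell. Of 35 metalloproteinases and inhibitors 5 fell, 0 rose by limma and 30 did not pass, against 2.12% of all genes that fell. The median of the list was -0.25. The fallers were Mmp9, Mmp14 (12.31 to 12.57 and 11.57 to 11.60 in epithelium, 12.13 to 12.32 and 11.55 to 11.63 in stroma), the sheddase gene Adam17 (-0.41 ± 0.07), Adamts12 (-0.65 ± 0.16) and the inhibitor Timp1 (-0.51 ± 0.11). The calls of Timp1 and Adamts12 were kept in 8 and 3 of 12 fits that left out 1 array. Mmp3 (-0.41 in epithelium, -4.23 in stroma), Mmp10 (0.18 and -3.14 likewise) and Mmp13 (0.12 and -3.20) did not pass over both layers. Among 6 plasminogen genes the tissue activator Plat (-1.03 ± 0.19) and the urokinase receptor Plaur (-0.86 ± 0.19) fell, Plat more in stroma (interaction -1.08 ± 0.21, adjusted p = 0.0452 by limma). Of collagens and matrix glycoproteins the proteoglycan gene Vcan (-1.27 ± 0.17) and Col18a1 (-0.77 ± 0.10) fell and the matricellular Thbs2 (0.66 ± 0.10) and the lubricin gene Prg4 (2.04 ± 0.46) rose, among 33. Prg4 rose mainly in stroma, from 5.10 to 5.27 up to 8.51 to 8.97, against 5.24 to 5.58 and 5.62 to 6.02 in epithelium (interaction 3.10 ± 0.21, adjusted p = 0.000243 by limma), and was kept in 6 of 12 fits that left out 1 array.

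Enzymes of steroid, amino acid and redox metabolism held further risers. Of 26 steroid-metabolizing enzymes Akr1c14 and Hsd11b2 rose, 0 fell by limma and 24 did not pass. Hsd11b2, which inactivates glucocorticoids, read 8.42, 8.97 and 7.83 under vehicle and 10.10, 10.23 and 9.15 with E2 in epithelium, and 7.81, 9.63 and 7.44 against 12.25, 12.33 and 12.45 in stroma. It rose by 2.74 ± 0.51 (6.66-fold, adjusted p = 0.0114 by limma), and the larger stromal change did not pass as a difference between layers (interaction 2.64, adjusted p = 0.135 by limma). The close relatives Akr1c18 (0.94, adjusted p = 0.149 by limma) and Akr1c6 (0.07) did not pass. Whether probes of Akr1c14 also bind transcripts of its relatives was not tested.

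Among 31 enzymes of glutamine, NADPH and amino acid metabolism 5 rose and 1 fell. The cysteine dioxygenase gene Cdo1 rose 3.05-fold, from 6.47 to 7.09 up to 7.50 to 8.06 in epithelium and from 8.58 to 9.10 up to 10.89 to 11.09 in stroma. The aspartate aminotransferase gene Got1 rose 1.67-fold, the NADP-dependent malic enzyme gene Me3 2.08-fold and Idh1, a cytosolic isocitrate dehydrogenase that makes NADPH, 2.32-fold. Idh1 rose more in epithelium (1.88) than in stroma (0.54), with an interaction of -1.34 ± 0.15 (adjusted p = 0.00333 by limma). The alanine aminotransferase gene Gpt2 fell (-0.34 ± 0.08). Amino acid transporters had Slc7a7 (-1.10 ± 0.23) and Slc1a4 (-0.75 ± 0.16) falling among 24. Of 34 glutathione and redox genes Gpx1 (0.65 ± 0.10), Gpx3 (0.81 ± 0.16), the glutathione reductase gene Gsr (0.49 ± 0.10) and Gstm2 (0.33 ± 0.07) rose and 0 fell by limma.

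Prostaglandin genes did not move as a group. Of 24, Ptgdr2 and the prostaglandin reductase gene Ptgr1 (0.28 ± 0.06) rose, the prostaglandin E receptor gene Ptger4 (-0.72 ± 0.14) and Ptgfrn (-0.47 ± 0.10) fell, and 20 did not pass, with a median of 0.01. The other prostaglandin D2 receptor gene Ptgdr differed by -0.01 and the prostaglandin D synthase genes Ptgds and Hpgds by 0.23 and 0.14, and these did not pass.

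Retinoid genes changed in both directions, 5 rising and 3 falling of 28. The receptor gene Rarb read 7.23, 7.74 and 6.94 under vehicle and 9.29, 9.25 and 8.69 with E2 in epithelium, and 8.15, 10.07 and 7.97 against 11.05, 11.09 and 10.65 in stroma, a rise of 1.99 ± 0.31 (adjusted p = 0.00474 by limma). Stromal vehicle replicate 2 again stood nearest to the E2 arrays. Of the retinaldehyde dehydrogenase genes Aldh1a1 (2.49 ± 0.41) and Aldh1a2 rose while Aldh1a3 (-0.52 ± 0.10) fell. Aldh1a1 rose more in stroma (interaction 2.48 ± 0.40, adjusted p = 0.0156 by limma), to 10.37 to 10.88 against 7.64 to 8.06 in epithelium. The binding protein genes split likewise, Crabp2 rising and Crabp1 falling, and the retinol-binding protein receptor gene Stra6 fell by 1.16 ± 0.18 on the log2 scale.

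Growth factor pathways held members of both signs. In the TGF-beta and BMP list of 45 the ligands Bmp6 (0.74 ± 0.10), Bmp8a (1.28 ± 0.24) and Bmp8b (0.83 ± 0.16) rose, while the 4 members that fell were receptors, namely Tgfbr1, Acvr1 (-0.50 ± 0.08), Acvr1b (-0.51 ± 0.11) and Acvr2a. Bmp8a read 7.01, 7.10 and 6.72 under vehicle and 7.56, 7.71 and 7.32 with E2 in epithelium, and 7.54, 8.38 and 7.57 against 9.80, 9.80 and 9.82 in stroma. Its rise was larger in stroma (interaction 1.39 ± 0.28, adjusted p = 0.0488 by limma).

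Of 24 FGF signalling genes 4 rose and 1 fell. Besides Fgf2 the feedback inhibitor Spry2 (1.08 ± 0.18) rose and its relative Spry1 (-1.13 ± 0.17) fell. Fgf10, a stromal growth factor for epithelia, read 9.05, 8.40 and 10.45 under vehicle and 10.10, 10.27 and 10.28 with E2 in epithelium, overlapping, and 8.50, 7.78 and 8.37 against 9.63, 9.71 and 9.23 in stroma, not overlapping. Its rise of 1.11 ± 0.28 passed narrowly (adjusted p = 0.0465 by limma) and was kept in 1 of 12 fits that left out 1 array. Fgf12 (0.37 ± 0.10) was kept in 2.

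WNT genes had 3 rising and 3 falling among 42. The antagonist genes Dkk2 (1.31 ± 0.24) and Frzb (0.49 ± 0.11) and the receptor Fzd2 (0.65 ± 0.10) rose, and the target Ccn4 (-1.56 ± 0.21), the receptor Fzd1 (-0.88 ± 0.17) and the ligand Wnt2 (-0.43 ± 0.10) fell. In the IGF and EGF families the EGF receptor inhibitor Errfi1 (0.69 ± 0.09) and Igfbp6 (0.84 ± 0.19) rose and the ligand Hbegf (-0.93 ± 0.14) and Igfbp3 (-0.81 ± 0.18) fell, among 30. Cytokine signalling through JAK and STAT had the kinase gene Pim1 (0.77 ± 0.09), the receptors Il6ra (0.76 ± 0.10) and Ghr (0.89 ± 0.14) and the inhibitor Socs2 (0.98 ± 0.19) rising, and Cish (-0.71 ± 0.07), Jak2 (-0.37 ± 0.05) and Tyk2 falling, among 25. Socs2 rose more in epithelium (interaction -1.20 ± 0.17, adjusted p = 0.00932 by limma).

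Guidance and vessel genes had members on both sides. Of 38 semaphorins, plexins, ephrins and related guidance genes 8 fell and 1 rose. Ntn1 read 8.52 to 9.26 under vehicle and 7.57 to 7.83 with E2 in epithelium, and 9.97 to 10.35 against 8.33 to 8.41 in stroma. The receptor Epha4 (-1.15 ± 0.19), the ligand Efnb1 (-0.68 ± 0.11), the semaphorins Sema7a (-0.90 ± 0.15) and Sema4c (-0.42 ± 0.09), the receptors Robo1 and Robo2 and Plxnb1 fell, and Sema6a rose (1.08 ± 0.22). Of 16 angiopoietin and VEGF genes, 8 measured higher and 8 lower, and Angpt1 (-1.90 ± 0.35), Ccbe1 (-1.79 ± 0.28) and Flt1 fell, and Angpt2 (1.12 ± 0.25) and Vegfb (0.35 ± 0.07) rose. Angpt1 was low in epithelium throughout, at 5.11 to 5.45 under vehicle and 4.52 to 4.57 with E2, and fell from 7.28 to 8.06 down to 4.66 to 4.79 in stroma (interaction -2.27 ± 0.25, adjusted p = 0.00333 by limma). Ccbe1 also fell more in stroma (interaction -1.66 ± 0.32, adjusted p = 0.0414 by limma). Among 27 integrins and laminins Lama1 (2.01-fold lower), Itga9 (-0.62 ± 0.12) and Itgav (-0.43 ± 0.10) fell and Itga8 (1.30 ± 0.25) rose.

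Some cell cycle genes passed. Of 31 mitosis and G2/M genes 4 rose, 0 fell by limma and 27 did not pass, against 2.19% of all genes that rose. Over both layers 31 of 31 measured higher, with a median of 0.23, as did 11484 of all 19938 genes. Besides Mad2l1 the risers were the cytokinesis gene Anln (1.12 ± 0.19), the kinase gene Cdk1 (0.53 ± 0.11) and the cyclin Ccnb2 (0.51 ± 0.12). The call of Ccnb2 was kept in 3 of 12 fits that left out 1 array. The list mean was 7.42, 7.72 and 7.38 in epithelial vehicle arrays and 7.86, 7.64 and 7.63 with E2, which overlapped, and 7.51, 7.42 and 7.17 against 7.59, 7.61 and 8.11 in stroma. Of 36 replication and G1/S genes the cyclin Ccne1 (0.27 ± 0.06) rose and the inhibitor Cdkn2b (-0.50 ± 0.09) fell.

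The remaining lists also had members past the threshold. Hypoxia and glycolysis genes had Car12 (1.35 ± 0.23), Aldoc (0.81 ± 0.14) and Adm (0.87 ± 0.20) rising among 32, with a median of 0.48 in epithelium and -0.08 in stroma. Glucocorticoid and progesterone target genes had Foxo1 (0.78 ± 0.17), Sgk1 (0.57 ± 0.13) and Pdk4 (1.05 ± 0.24) rising and Fkbp5 falling among 30. Interferon response genes had Irgm1 (-0.92 ± 0.20) and Irf1 (-0.69 ± 0.15) falling among 29, Irgm1 more in stroma (interaction -1.25 ± 0.16, adjusted p = 0.00691 by limma). The chaperonin gene Hspd1 (-0.43 ± 0.08) alone fell among 32 stress genes, 26 of which measured lower, against 8454 of all 19938 genes. Among 35 actomyosin genes and targets of SRF or YAP the myosin light chain gene Myl9 (0.36 ± 0.07) and the kinase gene Lats2 (0.33 ± 0.08) rose and Nuak2 and Myh9 fell. Acss2 (0.28 ± 0.06) alone rose among 23 lipid synthesis genes. A second Irf1 probe set differed by -0.04 and a second Hspd1 probe set by -0.42, and neither passed.

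**Figure D5:**
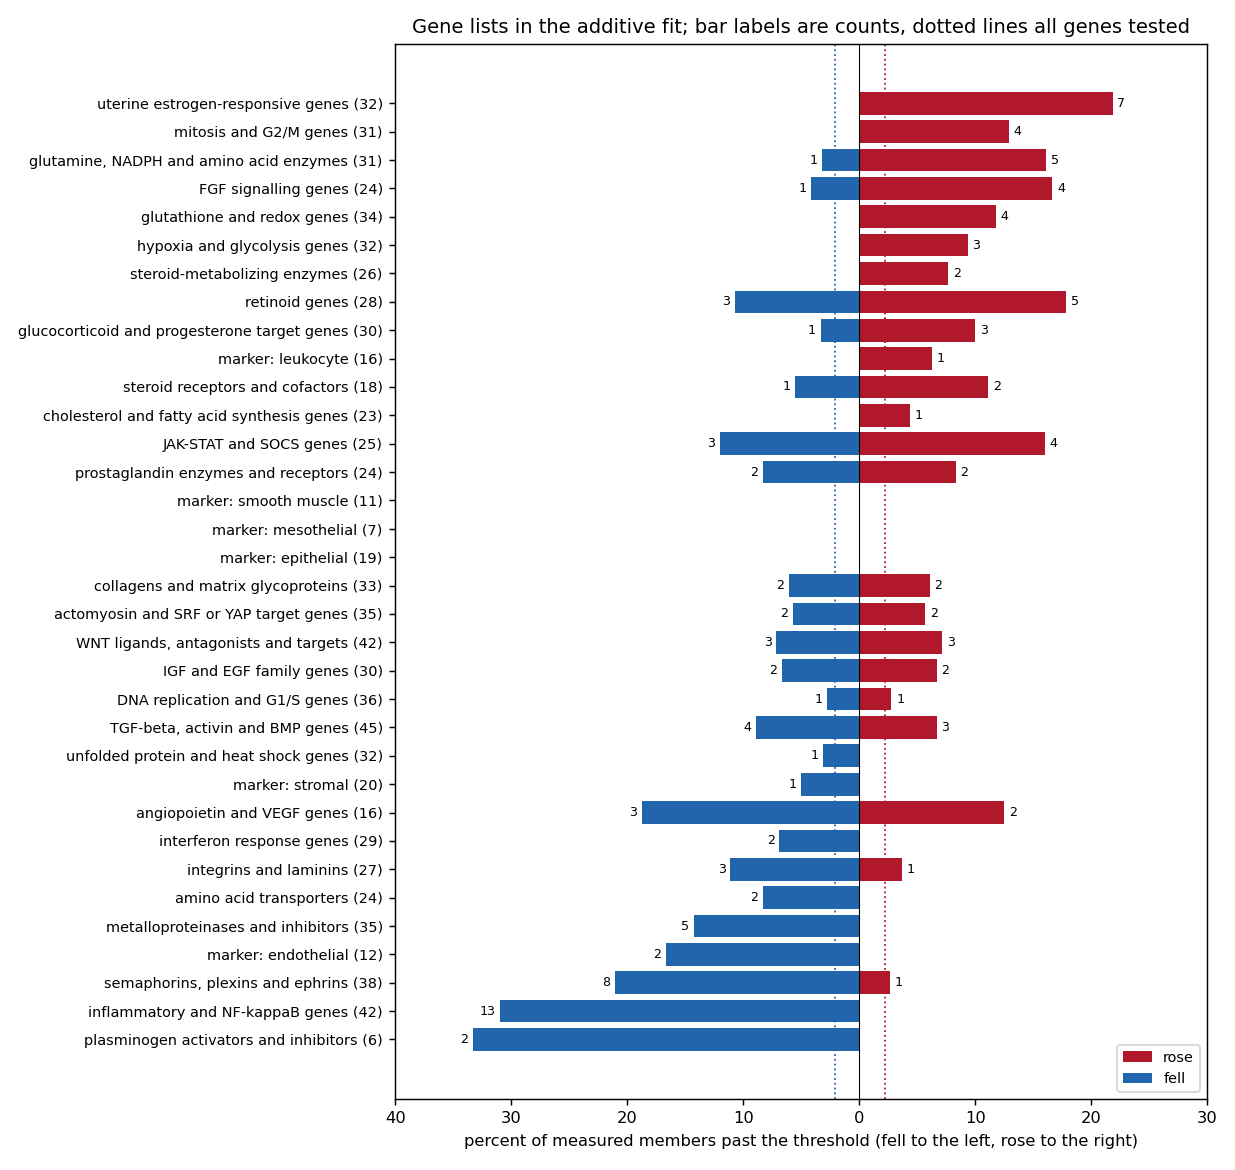
Percent of measured members (horizontal axis) of each gene list that rose (red, to the right) or fell (blue, to the left) over both layers, with counts at the bars, list sizes in parentheses and dotted lines for all 19938 genes (2.19% and 2.12%). By count the inflammatory list had the most fallers, 13 of 42, and the estrogen-responsive list the most risers, 7 of 32, while 2 of the 6 plasminogen genes fell.

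The identity of the shared genes depended on single arrays and on counting both layers as separate samples, and their number on single arrays. When the layers of each number were averaged, leaving 3 samples against 3, 860 probe sets were called, 656 of them among the 991. The 991 calls became 615 without epithelial E2 replicate 1 and 646 without epithelial E2 replicate 2. They became 601 and 564 without stromal vehicle replicates 1 and 3, and 540 and 544 without stromal E2 replicates 1 and 2. Without epithelial vehicle replicates 2 and 3 and without epithelial E2 replicate 3 they became 1287, 1070 and 1042. The other fits that left out 1 array gave 731 to 819. Leaving out any single array, 113 of the 147 called genes that the naming rule picked stayed past the threshold, among them Ptgdr2, Akr1c14, Glul and Mmp9. The others, Sema6a, Slc7a7, Cdk1, Acss2, Gsr, Slc1a4, Sema4c, Irgm1, Timp1, Oxtr, Acvr1b, Angpt2, Ptgr1, Foxo1, Frzb, Plaur, Sgk1, Adm, Irf1, Prg4, Gstm2, Igfbp3, Ccnb2, Gpt2, Igfbp6, Ccne1, Itgav, Pdk4, Lats2, Wnt2, Adamts12, Fgf10, Cdh11 and Fgf12, lost their call in at least 1 of the 12 fits that left out 1 array. When both layers of a replicate were left out together, 82 of the 147 stayed past the threshold in every such fit. Without E2 replicate 1 the calls of 62 were lost, and without E2 replicate 2 those of 58. Fos, Hsd11b2, Bmp8a, Spry2 and Dkk2 lost theirs in both of these fits. The further list members named after their values were seen are not in these counts. The spread between arrays was larger in epithelium (median SD 0.185 under vehicle and 0.158 with E2) than in stroma (0.0946 and 0.0804), although the fit used 1 spread per probe set for all 12 arrays.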

How the data were processed

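Per the labels' protocols, RNA from each layer was hybridised to Affymetrix Mouse Gene 1.0 ST arrays. The authors deposited log2 signal values for 35556 probe sets, made with RMA per the submitters' processing notes. Its version is not given in the sources used here. Scanner files were not used here, so detection above background was not tested. Array medians ran from 7.38 to 7.43, and the number of arrays limits the precision.

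Of the probe sets, 21789 had 1 gene symbol in the platform annotation, 1621 had several and 12146 had none. The 23410 with a symbol were fitted in limma 3.58.1 (R 4.3.3) with layer and treatment as additive terms on all 12 arrays, with 9 residual degrees of freedom. P-values were adjusted by the Benjamini-Hochberg method over all of them. A fit of the 4 group means gave the differences in each layer and their interaction. Scripts were tested on simulated data.

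A gene was represented by its brightest probe set with a single symbol. By rule the text names, for risers and fallers alike, the 25 called genes of smallest p whose treatments did not overlap in either layer. It also names up to 6 called members of every list, and a few chosen genes (Esr1, Igf1 and Ltf among them) whatever their result. Members and lists were chosen with earlier results of these data known. Alternatives covered normalization, filters, weights, blocks, thresholds and left-out arrays.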

Additional observations from a re-analysis of the deposited data

Results flagged for a closer look

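Among the genes picked by the naming rule, 15 are listed for which the E2 differences of the layers themselves differed, by the interaction term of limma with an adjusted p under 0.05. Values are the stromal minus the epithelial difference on the log2 scale, with 0.91% of all probe sets passing this test. Of the genes that rose, Akr1c14 (-2.73), Pgr (-2.06), Oxtr (-2.52), Idh1 (-1.34) and Socs2 (-1.20) rose more in epithelium. Prg4 (3.10), Aldh1a1 (2.48), Bmp8a (1.39) and Fos (0.93) rose more in stroma. Of those that fell, Angpt1 (-2.27), Ccbe1 (-1.66), Irgm1 (-1.25), Plat (-1.08) and Cdh11 (-0.85) fell more in stroma. Igf1 (-1.89) measured higher with E2 in epithelium and lower in stroma, and did not pass over both layers.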

How the results depend on the processing

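The counts of 497 higher and 494 lower probe sets moved by over 1.5 times with array weights estimated per layer (1092 and 1404) and with the threshold, at 167 and 147 for an adjusted p under 0.01 and 787 and 868 under 0.1. Leaving out 1 array or both layers of a replicate gave 141 to 611 higher and 135 to 687 lower, with the lowest counts when both layers of E2 replicate 1 were left out. The 145 probe sets called in both layers became 25 when each layer was fitted on its own 6 arrays. The array weights were 0.505 for each epithelial and 1.98 for each stromal array, so stroma counted more in that fit. There the difference of Igf1, which measured lower with E2 in stroma, reversed to -0.34. The cause of the shifts in the counts was not tested. A low-value filter, all probe sets, other scalings, a variance trend, the 4-group model, a random co-culture block, the mean of both layers and the mean of a gene's probe sets left both counts within 1.5 times, between 404 and 698. With the replicate block the counts were 428 and 469. Vehicle and E2 arrays of a number deviated together in some pairs and not in others (correlations -0.42, 0.27 and 0.27 in epithelium and 0.20, -0.04 and 0.03 in stroma). Epithelial and stromal arrays of a number correlated at 0.17, 0.14 and 0.13 under vehicle and at -0.31, 0.23 and -0.06 under E2. Every layer pair under vehicle passed 0.1, but not every correlation did, and the numbers were not taken as pairs. In all settings other than thresholds and left-out arrays, 124 of the 147 named and called genes stayed called, and 93 did at the stricter threshold. Signal over background limits the low probe sets.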

Other observations

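Among the 368 rising probe sets without overlap, the stromal vehicle array nearest to the E2 arrays was replicate 2 in 203 (55.2%), and the nearest epithelial vehicle array was replicate 3 in 189 (51.4%). Among the 364 falling ones the same arrays were nearest in 170 (46.7%) and 161 (44.2%). Vehicle replicate 2 was nearest in epithelium for 108 of the risers (29.3%) and in both layers at once for 65 (17.7%), Greb1 among them. Replicate 3 was nearest in both layers for 55 (14.9%) and replicate 1 for 22 (5.98%). Whether the 65 exceed what the shares in the single layers give by chance was not tested.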
